A study of Mus musculus with 6 samples.

Results

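The 10 genes described here are components and outputs of the circadian clock, namely Arntl (also named Bmal1), Per1, Per2, Per3, Cry1, Nr1d1, Nr1d2, Bhlhe41, Ciart and Dbp. They were chosen by name, and all 10 were found among the 56923 genes counted in the prefrontal cortex of 3 Pla2g4e KO and 3 WT mouse samples. The KO animals carried a constitutive gene-trap allele of Pla2g4e, a calcium-dependent phospholipase gene, made in C57BL/6N cells (C57BL/6N-A tm1Brd Pla2g4e tm2a), and were described as Pla2g4e-/-. The WT samples carried no such allele per the labels, no sample received a treatment or agent per the labels, and both groups were kept under alternating light and dark. The study used animals of both sexes. The labels give no age, sex, litter or batch, and the time of day at which the tissue was collected is not given in the sources used here. The tissue was the anterior cut of the brain, removed after cervical dislocation and frozen. The labels do not say that the replicates of a group were separate animals, so p-values measure the spread between these samples.

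The circadian clock of most mammalian cells is a feedback loop of transcription. The protein of Arntl pairs with that of Clock or Npas2, binds E-boxes in DNA and switches on the Per and Cry genes, whose proteins return to the nucleus and block that pair. A second loop runs through Nr1d1 and Nr1d2, the REV-ERB receptors, which repress Arntl, and output factors such as Dbp carry the rhythm to other genes by binding D-boxes. In cortex, as in other tissues outside the suprachiasmatic nucleus, these transcripts rise and fall over the day, with Arntl known to cycle roughly opposite to Dbp, Nr1d1, Ciart and Per3, and Cry1 known to peak late. Some of them, Per1 foremost, also respond to neuronal activity and to glucocorticoids.

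The binding motifs of this loop were searched in the 250 bases before each start site, as a description. The genes were named as parts of a loop that acts through these motifs, so their choice was not independent of them. RefSeq promoter sequences of the GRCm38.p6 build were matched by symbol for 9 of the 10 genes, with 11 entries in all. Per2 had no entry. The letters searched on both strands were CACGTG (E-box), CACGTT (E-prime-box), TTANGTAA (D-box, bound by Dbp, Tef, Hlf and Nfil3), TAGGTCA (core of the element bound by ROR and REV-ERB receptors) and TGACGTCA (cAMP element). No 2 of the reported matches overlapped. The E-box letters stood in 4 of the 11 windows, those of Ciart, Bhlhe41, Cry1 and Per1 (1 window each), and in 6.02% of all 32851 promoters in the same table. The E-prime-box letters stood in 2 of the 11, of Cry1 and Nr1d1, and in 3.85% of all promoters, and the D-box letters in 1 of the 11, of Per3, and in 2.06%. The ROR core and the cAMP element were in none of the 11 windows and in 2.23% and 1.55% of all promoters. A match is a description of the letters in these windows, and binding was not measured.

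The stretches around the matches are printed 5′ to 3′ on the strand of the gene, with the matched letters in capitals and the rest in lower case. They show the 3 E-boxes of Ciart, the E-prime-box and E-box of Cry1, the single E-box of Per1 and the paired D-boxes of Per3. The motifs were not tested against expression. The windows of Bhlhe41 and Nr1d1 complete the genes with a match. Where the capitals read AACGTG, the E-prime-box lies on the other strand.
Ciart, chr3:95882247-95882364, minus strand: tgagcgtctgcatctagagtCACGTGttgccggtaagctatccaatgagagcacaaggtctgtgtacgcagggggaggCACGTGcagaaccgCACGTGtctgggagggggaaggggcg
Cry1, chr10:85185089-85185153, minus strand: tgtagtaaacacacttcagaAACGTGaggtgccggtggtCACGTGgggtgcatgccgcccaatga
Per1, chr11:69098763-69098808, plus strand: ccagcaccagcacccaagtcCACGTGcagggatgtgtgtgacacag
Per3, chr4:151044796-151044890, minus strand: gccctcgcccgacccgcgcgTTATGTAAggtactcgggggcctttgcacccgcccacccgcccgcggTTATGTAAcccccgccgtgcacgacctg
Bhlhe41, chr6:145865548-145865593, minus strand: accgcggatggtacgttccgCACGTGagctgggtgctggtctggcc
Nr1d1, chr11:98775380-98775425, minus strand: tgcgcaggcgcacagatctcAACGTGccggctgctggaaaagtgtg

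**Figure D1:**
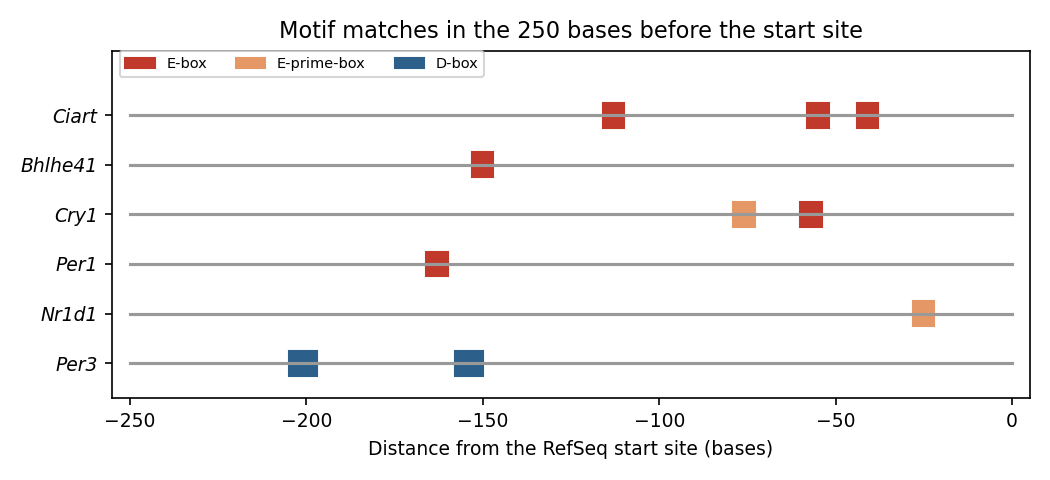
Position of each motif match in the 250 bases before the RefSeq start site (x axis, bases from the start site) for the 6 genes with a match, with E-boxes in red, E-prime-boxes in orange and D-boxes in blue. The 3 E-boxes of Ciart begin at -116, -58 and -44, and the D-boxes of Per3 at -205 and -158.

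Libraries held between 11792463 and 14594230 counted fragments. Y-linked genes were expressed in 4 libraries and not in KO replicate 1 and WT replicate 1, so each group held 1 library without them. Pla2g4e itself was at 5.95, 8.12 and 7.97 CPM (counts per 1e+06 fragments, after TMM scaling) in the 3 KO libraries and at 7.84, 11.3 and 13.2 CPM in the 3 WT libraries. These groups overlapped, and the fitted log2 fold change of KO over WT was -0.55 (SE 0.21, limma-voom unadjusted p = 0.0205, adjusted p = 0.635). It was -0.39 without KO replicate 1 (unadjusted p = 0.0923), -0.50 without WT replicate 2 (unadjusted p = 0.0557) and -0.39 without WT replicate 3 (unadjusted p = 0.0943), all in limma-voom. Without WT replicate 1 it was -0.76 (limma-voom, unadjusted p = 0.00113), without KO replicate 2 it was -0.63 and without KO replicate 3 it was -0.62. Counts were summed over all exons, so they do not say whether the trapped transcript is functional. The study reported no Pla2g4e protein in the hippocampus of its KO mice, by Western blot and immunostaining. That is another measure and another region than the RNA counted here. Cortical excitatory neuron markers were detected in every library, with summed levels of 5130 to 6109 CPM in KO and 5529 to 6024 CPM in WT. Of these 5 markers, all 5 had fitted values below WT in KO. Olfactory bulb markers summed to 262 CPM in KO replicate 1 and to between 17.8 and 74.1 CPM in the other 5 libraries. Their fitted values were higher in KO for 6 of 6 genes (51.9% of all genes tested), 3 of them with an unadjusted p under 0.05 in limma-voom (4.38% of all genes tested, higher in KO), and Eomes had no fragment in WT replicate 2. Fitted values were also higher in KO for 8 of 8 striatal markers (summed level 332 to 431 CPM in KO libraries, 244 to 413 CPM in WT libraries), 1 of them, Penk, with an unadjusted p under 0.05. They were higher for 5 of 5 oligodendrocyte, 5 of 5 astrocyte and 4 of 4 leptomeningeal fibroblast markers and lower for 4 of 4 endothelial markers. None of these genes had an unadjusted p under 0.05 in limma-voom. The summed levels of these lists and of the striatal markers overlapped between the groups. Of 7 markers of the suprachiasmatic nucleus and hypothalamus, 5 were too low to be tested. Six6 and Nms, which mark the suprachiasmatic nucleus, had no fragment in any library.

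All 10 clock genes passed the filter and were tested. Their single-library counts ran from 96 fragments, for Ciart in WT replicate 1, to 1762 fragments, for Per1 in KO replicate 1. Divided by exon length, the level was highest for Nr1d1, at a mean of 36.3 CPM per kb over the 6 libraries. Nr1d2 (21.4 CPM per kb), Per1 (21.2) and Dbp (19.1) followed, then Per2 (9.88), Per3 (7.78), Arntl (5.75), Bhlhe41 (4.97), Ciart (4.84) and Cry1 (4.06). Nr1d1 lay above Nr1d2 in 6 of 6 libraries. Nr1d2 and Per1 were neighbours that did not separate, since Nr1d2 was the higher of the pair in 3 of 6 libraries. Per1 exceeded Dbp and Dbp exceeded Per2 in 6 of 6 libraries each. Bhlhe41 was above Ciart in 4 of 6 and Ciart above Cry1 in 5 of 6, so the order at the bottom changed between samples. Among 11 other transcription factors of the clock, the D-box factor Tef had the highest level, at 42.6 CPM per kb.

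**Figure D2:**
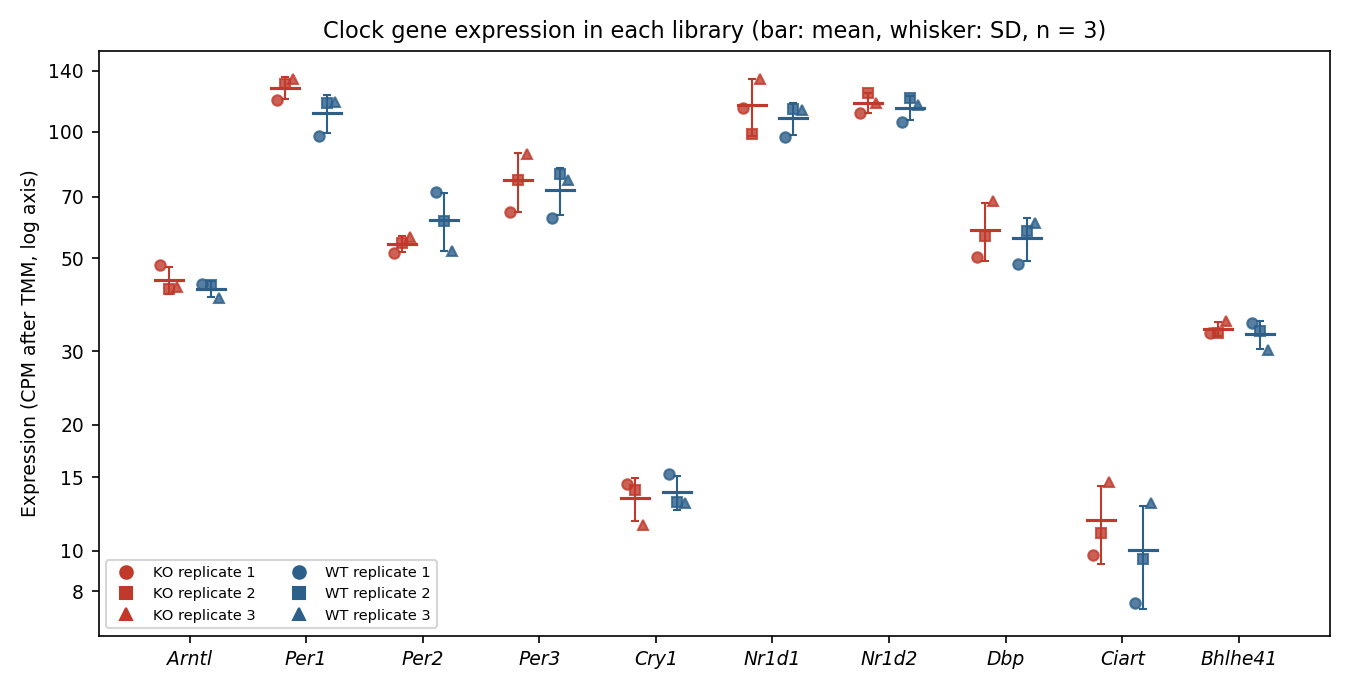
Expression of the 10 clock genes (CPM after TMM scaling, log axis) in each of the 3 KO (red) and 3 WT (blue) libraries, with the marker shape giving the replicate, the bar the group mean and the whisker the SD. Per1 is the only gene whose KO values all lie above its WT values, and Ciart spans 7.53 to 14.6 CPM.

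The comparison of KO with WT asked whether clock transcripts in the prefrontal cortex differed in level between the libraries of these labels. Fitted values were above WT in 8 of the 10 genes and below in Per2 and Cry1, against 51.9% of all 19084 genes tested with a value above 0. That count is a description and was not tested, since the 10 genes share regulators and are not independent. Their median log2 fold change was 0.06, beside 0.01 over all genes tested. Of the 10 genes, 1 had an unadjusted limma-voom p under 0.05, compared with 7.82% of all genes tested in either direction and 4.38% higher in KO. That share of the members is near the background. None of the 10 passed the adjusted threshold, nor did any gene of the whole table in limma-voom (0 of 19084, with 1492 at an unadjusted p under 0.05). The unadjusted count was 1507 by the quasi-likelihood test of edgeR with 0 adjusted, and 902 by DESeq2 with 1 adjusted. With Y-linked expression as a covariate 23 genes passed the adjusted threshold, and 3 did in the libraries with Y-linked expression alone. Groups did not overlap in CPM for 1 of the 10 genes, Per1, against 13% of all genes in either direction and 6.72% with KO above WT.

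Arntl, the activating partner of the loop, stood at 48.1, 42.1 and 42.6 CPM in KO replicates 1 to 3 and at 43.4, 43.2 and 40.1 CPM in WT replicates 1 to 3. KO replicate 1 was the highest library and WT replicate 3 the lowest, and the other values of both groups fell between them. The log2 fold change was 0.07 with a 95% interval of -0.11 to 0.25 (limma-voom, unadjusted p = 0.410). Without KO replicate 1 it was 0.0061 and without WT replicate 3 it was 0.030. Its range was narrow, with the highest library at 1.20 times the lowest.

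Per1, a repressor of the loop, stood at 119, 129.99 and 133 CPM in the KO libraries against 97.7, 117 and 118 CPM in the WT ones. Every KO library lay above every WT library, by a small margin between KO replicate 1 and WT replicate 3, and WT replicate 1 was the lowest of the 6. The means were 127.5 ± 7.50 CPM in KO and 111.0 ± 11.6 CPM in WT (SD, n = 3 each). The fitted log2 fold change was 0.20 (SE 0.08, 95% interval 0.02 to 0.39, limma-voom unadjusted p = 0.0319, adjusted p = 0.635). Without WT replicate 1 the value was 0.11 with an unadjusted p of 0.161, without KO replicate 2 it was 0.18 (unadjusted p = 0.0949), and without KO replicate 3 it was 0.17 (unadjusted p = 0.111), all in limma-voom. In the 4 libraries with Y-linked expression it was 0.16 (limma-voom, unadjusted p = 0.0498), and with Y-linked expression as a covariate 0.20 (limma-voom, unadjusted p = 0.00585, adjusted p = 0.348). Over its 16 alternatives the adjusted p of Per1 ran from 0.348 to 0.999.

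Levels of other gene lists to which Per1 is linked were read beside it. Of 15 immediate early genes, which answer neuronal activity, 10 had fitted values above WT and 5 below, and none had an unadjusted p under 0.05 in limma-voom. Their summed level was 914, 1339 and 1046 CPM in the KO libraries against 893, 1212 and 1196 CPM in the WT ones, lowest in replicate 1 of each group. Of 14 glucocorticoid-responsive genes, 11 were above and 3 below, again with none at an unadjusted p under 0.05. Their sum was highest in KO replicate 1, at 841 CPM, where Per1 was the lowest of the 3 KO libraries, and ran from 523 to 679 CPM in the other 5. The part of these lists and of the cell type markers given above in the value of Per1 was not tested.

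Per2, a second repressor of the Per family, was at 51.4, 54.2 and 56.2 CPM in the KO libraries against 71.8, 61.3 and 52.1 CPM in the WT ones. WT replicates 1 and 2 lay above all KO libraries, while WT replicate 3 lay within the KO range. The KO values were close together (53.9 ± 2.37 CPM) and the WT values spread (61.7 ± 9.85 CPM, SD, n = 3 each). The log2 fold change was -0.19 (SE 0.10, 95% interval -0.41 to 0.04, limma-voom unadjusted p = 0.1005). Without WT replicate 3 it was -0.31 (limma-voom, unadjusted p = 0.00703, adjusted p = 0.296, the lowest of a range up to 0.999), without WT replicate 1 it was -0.07 (unadjusted p = 0.465, limma-voom), and in the 4 libraries with Y-linked expression it was -0.03 (unadjusted p = 0.732, limma-voom). The log2 ratio of Per1 to Per2 within a library was 1.21, 1.26 and 1.25 in the KO libraries against 0.44, 0.94 and 1.18 in the WT ones. The ratio did not overlap between the groups. It was picked after the values of both genes were seen and was not tested.

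Per3, the family member whose loss alters the loop least, was at 64.4, 77.0 and 88.7 CPM in the KO libraries against 62.2, 79.5 and 77.0 CPM in the WT ones. Replicate 1 of each group was low and KO replicate 3 high. The groups overlapped, with a log2 fold change of 0.07 and a 95% interval of -0.19 to 0.33 (limma-voom, unadjusted p = 0.583). Cry1, whose protein is the strong repressor of the loop, was at 14.5, 13.99 and 11.6 CPM in the KO libraries against 15.3, 13.1 and 13.03 CPM in the WT ones. Here the order was turned over, with replicate 1 of each group highest and KO replicate 3 lowest. The log2 fold change was -0.05 (95% interval -0.33 to 0.23, limma-voom unadjusted p = 0.707).

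The REV-ERB genes of the second loop did not separate by genotype. Nr1d1 was at 114, 98.7 and 134 CPM in the KO libraries against 97.0, 113 and 113 CPM in the WT ones, with the highest library and a low one both in KO. Its log2 fold change was 0.10 (95% interval -0.13 to 0.32, limma-voom unadjusted p = 0.367). Nr1d1 overlaps Thra on the opposite strand, and the fragments were counted by strand. Nr1d2 was steadier, at 111, 124 and 117 CPM in the KO libraries against 106, 120.4 and 116 CPM in the WT ones. The highest Nr1d2 library was 1.17 times the lowest, and the log2 fold change was 0.04 (95% interval -0.12 to 0.20, limma-voom unadjusted p = 0.589).

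Bhlhe41 (DEC2), a repressor that competes for E-boxes, was at 33.1, 33.2 and 35.4 CPM in the KO libraries against 35.04, 33.5 and 30.1 CPM in the WT ones. The groups overlapped over a range of 1.17-fold, with a log2 fold change of 0.05 (95% interval -0.14 to 0.23, limma-voom unadjusted p = 0.612). Ciart (CHRONO), a repressor that binds the Arntl protein, had a fitted value of 0.24 with a 95% interval of -0.20 to 0.68, the widest of the 10 (limma-voom, unadjusted p = 0.255). That value was 0.047 without WT replicate 1, 0.079 without KO replicate 3, 0.38 when KO replicate 1 was left out and 0.44 when WT replicate 3 was. Ciart stood at 9.80, 11.1 and 14.6 CPM in the KO libraries against 7.53, 9.58 and 13.03 CPM in the WT ones. Replicate 3 was the highest and replicate 1 the lowest within both groups.

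Dbp, the output factor named for the D-box of the albumin promoter, was at 50.4, 56.5 and 68.4 CPM in the KO libraries against 48.4, 58.0 and 60.7 CPM in the WT ones. KO replicate 3 was highest, the first replicate of each group was lowest, and the groups overlapped. The log2 fold change was 0.06 (SE 0.12, 95% interval -0.19 to 0.31, limma-voom unadjusted p = 0.607).

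**Figure D3:**
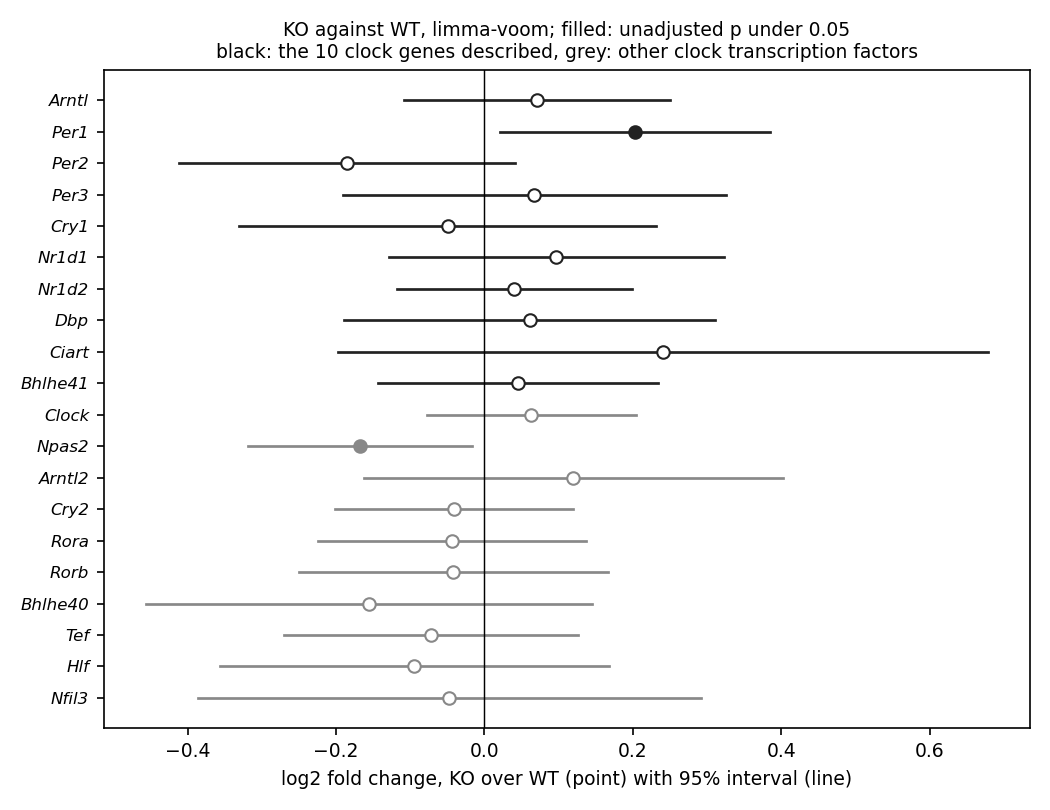
Fitted log2 fold change of KO over WT (points) with its 95% interval (lines) from limma-voom for the 10 clock genes (black) and 10 other clock transcription factors (grey), filled where the unadjusted p is under 0.05. Per1 at 0.20 and Npas2 at -0.17 are the filled points, and neither passes the adjusted threshold.

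The partners and relatives of these genes were read from lists chosen by function. Of 11 other clock transcription factors, 3 had fitted values above WT and 8 below, and 1, Npas2, had an unadjusted p under 0.05, as had 3.44% of all genes tested with lower values in KO. Npas2, which can take the place of Clock as the partner of Arntl in the forebrain, was at 56.8, 54.8 and 59.9 CPM in the KO libraries against 64.9, 64.3 and 63.3 CPM in the WT ones. Every KO library lay below every WT library, compared with 6.29% of all genes tested with KO below WT without overlap. The log2 fold change of Npas2 was -0.17 (SE 0.07, limma-voom unadjusted p = 0.0328, adjusted p = 0.635). It kept its sign under all 16 alternatives and had an unadjusted p above 0.05 in 8 of them, with a range of 0.0283 to 0.104. In limma-voom, the unadjusted p was 0.0692 without KO replicate 1, 0.104 without KO replicate 2, 0.0654 without WT replicate 1 and 0.0677 without WT replicate 2.

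Clock, the usual partner of Arntl, had a log2 fold change of 0.06 (SE 0.06, limma-voom unadjusted p = 0.349), with 0.034 when WT replicate 3 was left out and 0.10 when WT replicate 1 was. Fitted values for the other named factors ran from -0.16 for Bhlhe40, the DEC1 repressor, and -0.09 for Hlf to -0.07 for Tef, -0.05 for Nfil3, a repressor at D-boxes, and -0.04 each for Cry2, Rora and Rorb. The unadjusted limma-voom p of these 7 ran from 0.282 to 0.764. Hlf was at -0.25 without WT replicate 1 (limma-voom, unadjusted p = 0.0246, adjusted p = 0.819, with adjusted values of 0.658 to 0.999 over its 16 alternatives) and at -0.0043 without KO replicate 1. Bhlhe40 was at -0.30 without KO replicate 3 (limma-voom, unadjusted p = 0.0450) and at 0.0018 without WT replicate 2. Among 11 kinases, ubiquitin ligases and proteases that set the stability of PER and CRY proteins, 4 had values above and 7 below WT, and none had an unadjusted p under 0.05. Among 13 other genes linked to the clock, 12 were tested, 9 with values above and 3 below, again with none at an unadjusted p under 0.05. Avp, a clock-driven peptide gene of the hypothalamus, was too low to be tested.

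The spread among libraries was then set beside the spread of genes in general. The SD of log2 CPM within groups was largest for Ciart, at 0.345, a value higher than that of 88.2% of the 15254 genes with a mean of at least 1 CPM. Per3 (0.213, percentile 71.6), Dbp (0.199, percentile 69.0) and Nr1d1 (0.180, percentile 64.6) came next. Per2 had an SD of 0.169 (percentile 61.7), Cry1 of 0.152 (percentile 56.5) and Per1 of 0.125 (percentile 45.6). Nr1d2, Bhlhe41 and Arntl were steadiest, each at an SD of 0.087 and a percentile between 25.4 and 25.6. Counting alone would give an SD of 0.125 for Ciart, 0.110 for Cry1, 0.061 for Arntl and 0.070 for Bhlhe41. For the other 6 genes it would give between 0.037 and 0.054. The SD of each of the 10 genes was above this counting value, but the difference was not tested. The SD holds differences between samples of any kind. The ratio of the highest library to the lowest was 1.94 for Ciart, 1.43 for Per3, 1.41 for Dbp and 1.40 for Per2. It was 1.38 for Nr1d1, 1.37 for Per1 and 1.32 for Cry1.

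Several of the clock genes were high or low in the same libraries, in both genotypes. Dbp and Cry1 ran in exactly opposite order over the 6 libraries (Pearson r = -0.977, exact permutation p = 0.00139, Spearman rho = -1.0). That p is the smallest that 720 pairings can give, and adjusted over the 45 pairs of members it was 0.0625. Per3 and Cry1 had r = -0.936 (exact permutation p = 0.00417, adjusted p = 0.0938, rho = -0.943), and Per3 and Dbp r = 0.969 (exact permutation p = 0.00694, adjusted p = 0.104, rho = 0.943). Of the 45 pairs, 8 had an unadjusted exact p under 0.05 and none passed the adjusted threshold. These tests were two-sided. In bulk tissue, a change in RNA per cell and a change in the number of expressing cells cannot be told apart.

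**Figure D4:**
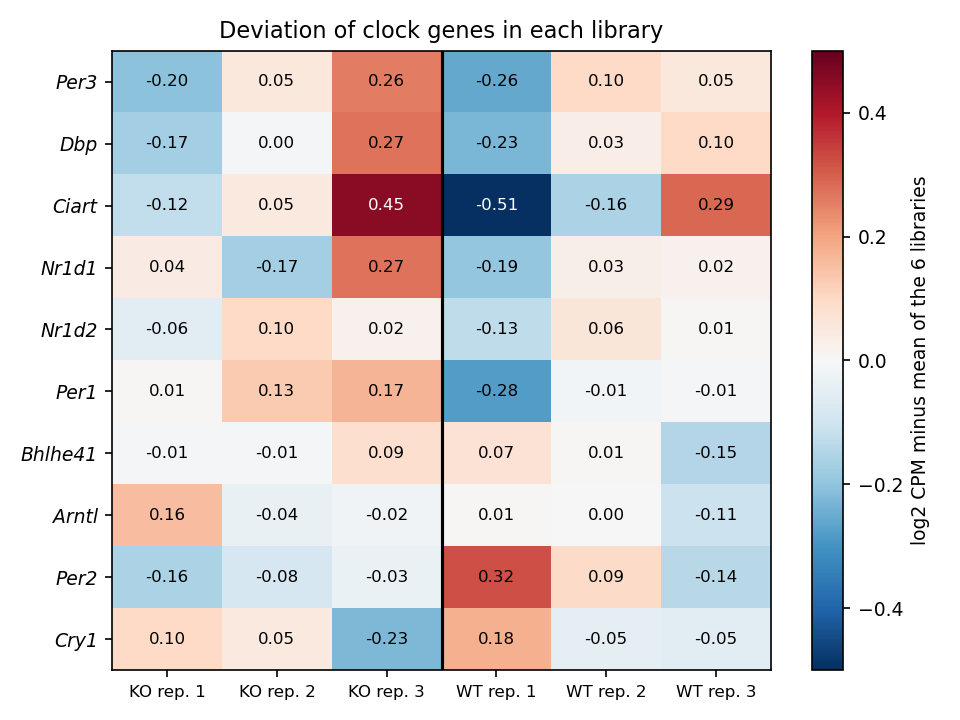
Deviation of each clock gene (rows) in each library (columns) from its mean log2 CPM over the 6 libraries, on a scale from blue (lower) through white to red (higher), with the value printed in each cell and a line between KO and WT. Ciart is 0.45 above its mean in KO replicate 3 and 0.51 below it in WT replicate 1, while Cry1 has the opposite signs in the same libraries.

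The 3 strongest relations, all among Dbp, Per3 and Cry1, were computed again without the 2 libraries farthest from the median. They were picked in these same libraries, so the values below are no independent check. For Dbp and Cry1, r was then -0.911, without KO replicate 3 and WT replicate 1. For Per3 and Dbp it was 0.904 with Per3 as the x measure, without replicate 1 of both groups, and 0.911 with Dbp as x, without KO replicate 3 and WT replicate 1. For Per3 and Cry1 it was -0.931 with Per3 as x and -0.810 with Cry1 as x, without the same pairs of libraries. When any single library was left out, r stayed between -0.990 and -0.955 for Dbp and Cry1, between 0.951 and 0.982 for Per3 and Dbp, and between -0.982 and -0.895 for Per3 and Cry1. With group means removed the 3 values were -0.977, 0.968 and -0.934. The libraries without Y-linked expression were the lowest for Dbp and Per3 and the highest for Cry1 in both groups. In the 4 libraries with Y-linked expression r was -0.973 for Dbp and Cry1, a value that was not tested. For the pairs with Per3 these 4 libraries are the ones that remained with Per3 as the x measure, so their values are those given above. The 2 libraries without Y-linked expression gave no value.

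The remaining 5 pairs with an unadjusted exact p under 0.05 were weaker without the 2 farthest libraries, KO replicate 3 and WT replicate 1, or WT replicate 1 and KO replicate 1. All 5 kept their sign when any single library was left out, with r from 0.830 to 0.954 for Dbp and Ciart, -0.941 to -0.764 for Ciart and Cry1, -0.965 to -0.634 for Nr1d1 and Cry1, 0.582 to 0.922 for Per1 and Ciart and 0.674 to 0.931 for Per3 and Ciart. In the 4 libraries with Y-linked expression, r was 0.842, -0.699, -0.992, 0.513 and 0.588 for these pairs in the same order. Dbp and Ciart had r = 0.905 (exact permutation p = 0.0194, adjusted p = 0.212, rho = 0.829) and 0.634 without the 2 farthest libraries. For Ciart and Cry1, r was -0.869 (exact permutation p = 0.0236, adjusted p = 0.212, rho = -0.829) and -0.409 without them. Nr1d1 and Cry1 went from -0.859 (exact permutation p = 0.0375, adjusted p = 0.242, rho = -0.600) to -0.262. Per1 and Ciart went from 0.828 (exact permutation p = 0.0403, adjusted p = 0.242, rho = 0.829) to 0.093, and Per3 and Ciart from 0.822 (exact permutation p = 0.0431, adjusted p = 0.242, rho = 0.657) to 0.588 with Per3 as the x measure and 0.328 with Ciart as x. Arntl and Dbp, which are known to cycle in opposite phase, had r = -0.556, with -0.716 after group means were removed and 0.041 in the 4 libraries with Y-linked expression.

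**Figure D5:**
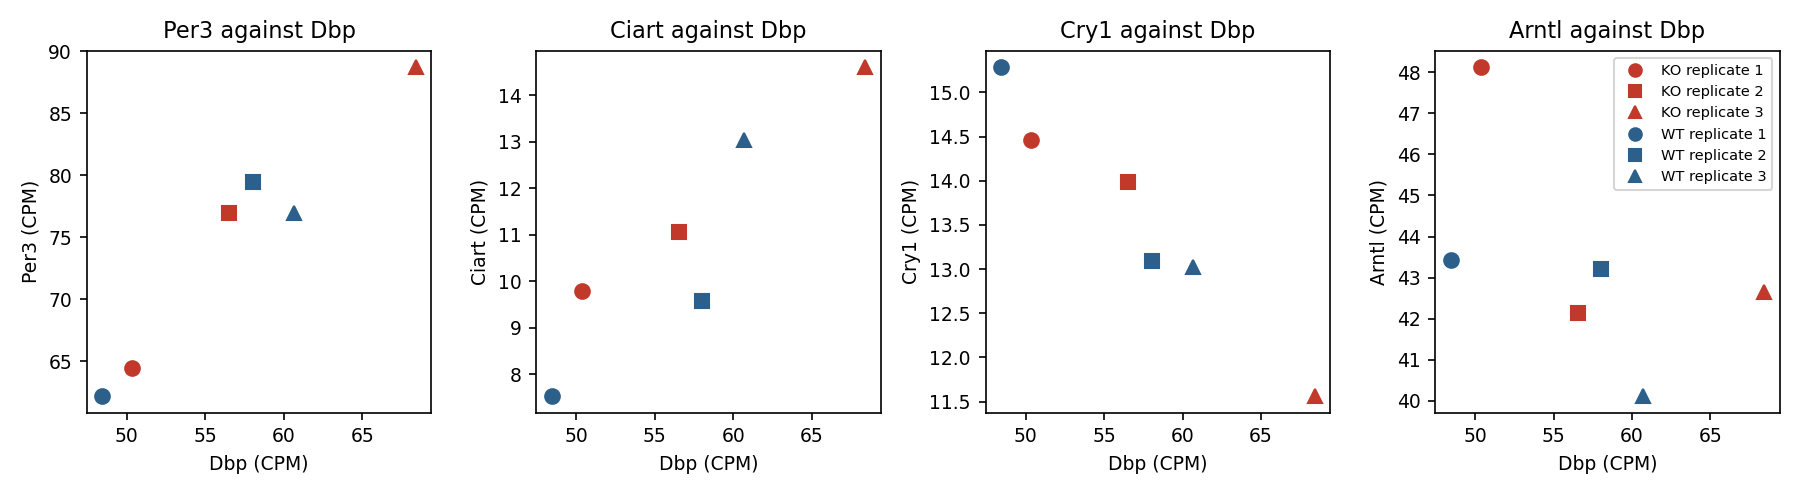
Per3, Ciart, Cry1 and Arntl (y axes, CPM) against Dbp (x axis, CPM) in the 6 libraries, KO in red and WT in blue with the marker shape giving the replicate. Per3 and Cry1 follow Dbp with r = 0.969 and -0.977 on the log2 scale, while Arntl has its highest value, 48.1 CPM, in KO replicate 1 and lies between 40.1 and 43.4 CPM in the other 5 libraries.

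Within each library, the log2 ratio of Dbp to Cry1 gives the same order in 1 value. It was 1.80, 2.02 and 2.57 in the KO libraries against 1.66, 2.15 and 2.22 in the WT ones, so the range within a genotype was larger than the distance between genotypes. Replicate 1 of each group was lowest and replicate 3 highest. The log2 ratio of Dbp to Arntl was 0.07, 0.42 and 0.68 in the KO libraries against 0.16, 0.43 and 0.60 in the WT ones, with replicate 1 of each group again at the bottom and replicate 3 at the top. Replicate numbers are names, and the labels do not say that they mark a shared time or day of collection. The part of collection time, sex and dissection in this order was not tested. The summed level of the immediate early genes was lowest in the same replicate 1 libraries. That of the olfactory bulb markers was highest in them, with 262 CPM in KO replicate 1 and 74.1 CPM for WT replicate 1. The next library, KO replicate 2, had 70.9 CPM. Astrocyte markers also summed highest there: KO replicate 1 had 1214 CPM, WT replicate 1 had 1270 CPM, and the rest had 812 to 992 CPM. So did leptomeningeal fibroblast markers, where KO replicate 1 (80.5 CPM) barely exceeded KO replicate 2 (79.6 CPM). Sums of excitatory neuron and oligodendrocyte markers were lowest in replicate 1 within each group only. The part of these lists in the order was not tested.

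Pattern likeness to Dbp was described over 11467 protein-coding genes with a mean of at least 5 CPM, as Pearson r of log2 CPM over the 6 libraries. Nek10 (0.993), Igdcc4 (0.982), Wscd1 (0.977), Otud4 (0.971) and Entpd7 (0.970) were most like it, and Per3 was in rank 7. Errfi1 (-0.999), Hnrnpa0 (-0.995), Snx14 (-0.992), Tmem60 (-0.979) and Cry1 (-0.977) were most unlike. Of all these genes, 5.82% had r of at least 0.8 or at most -0.8, and 3 of the 9 other clock genes did, Per3, Ciart and Cry1. Among the other clock factors, Hlf (0.843), a relative of Dbp, lay in rank 208, Cry2 had 0.734 and Tef 0.701, and the opposing D-box repressor Nfil3 had -0.70. All genes were read from the same 6 libraries, so whatever differs between these libraries, such as dissection or Y-linked status, enters every one of these values.

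For Arntl the genes of highest r were Ip6k2 (0.997), Ifi27 (0.989), Jarid2 (0.988), Gdpd5 (0.986) and Ubash3b (0.986). Those of lowest r were Spty2d1 (-0.992), Nucks1 (-0.987), Ephb3 (-0.980), Sgtb (-0.978) and Rfwd3 (-0.978). None of the other 9 clock genes reached 0.8 in either direction with Arntl, against 6.52% of all genes. The strongest among the further clock factors were Cry2 (-0.853) and Rorb (-0.837), while Clock had 0.623. These values rest on the narrow range of Arntl, 1.20-fold over the 6 libraries.

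The genes lie on 8 chromosomes of the GRCm39 assembly that the files use. Per1 spans chr11:68986043-69000786 on the plus strand and shares that chromosome with Nr1d1 at chr11:98658758-98666159 on the minus strand. Arntl at chr7:112806672-112913333 and Dbp at chr7:45354512-45359627 are both on the plus strand of chromosome 7. Per2 is at chr1:91343704-91387046, Per3 at chr4:151088109-151129122, Ciart at chr3:95785815-95789563, Cry1 at chr10:84967564-85020928 and Bhlhe41 at chr6:145803969-145811284, all on the minus strand, and Nr1d2 is at chr14:4230569-4265642 on the plus strand. Pla2g4e lies on chromosome 2, apart from all 10. These positions are not on the same build as the promoter windows printed above.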

How the data were processed

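Polyadenylated RNA of 3 KO and 3 WT samples was sequenced in strand-specific libraries. The deposited values are raw counts of fragments per gene. Per the file headers the authors counted them with featureCounts 1.6.0 on GENCODE M31 (reverse-stranded, paired), after STAR 2.7.9a alignment to GRCm39 per the submitters' processing notes. The published methods cite another build, so gene coordinates follow the files. Symbols were matched by gene identifier for 52073 of 56923 genes. Genes with at least 6 fragments in at least 1 library (19084) were tested with TMM scaling (edgeR 4.0.16), voom and limma 3.58.1 under R 4.3.3, two-sided, with Benjamini-Hochberg adjustment and a threshold of 0.05. CPM are TMM-scaled, and log2 CPM used for correlations had a prior count of 2. Levels per kb used the exon length in the files. Correlations were tested by exact permutation with NumPy 2.4.6, with ranks from SciPy 1.17.1. The fit was tested on simulated data. Library totals of 11792463 to 14594230 fragments, without molecular identifiers, set the counting error. Groups came from sample titles. All members, Pla2g4e, 9 other clock factors, any gene of the clock lists with an unadjusted p under 0.05, and the 5 most and 5 least like Dbp and Arntl were named by rule. Members and lists were chosen with earlier results of these data known. The comparison was repeated with DESeq2 1.42.0, the edgeR quasi-likelihood test, other scalings and filters, quality weights, a replicate block, Y-linked expression and leaving out each library. The removal of the means of libraries with and without Y-linked expression from the correlations was chosen after seeing the data. Some genes of the lists are counted but not reported here by name.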

Additional observations from a re-analysis of the deposited data

How the results depend on the processing

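Under the 16 alternatives, the number of clock genes with values higher in KO stayed between 6 and 8. The median SD within groups, 0.161, was between 0.125 and 0.182 over its 7 alternatives (library totals and leaving out each library). The count of clock genes with an unadjusted p under 0.05 was 1 in the 10 alternatives that kept all libraries or those with Y-linked expression, and ran from 0 to 2 when each library was left out. Over all genes, the adjusted count was 1 with DESeq2, 23 with Y-linked expression as a covariate, 3 in the libraries with Y-linked expression alone and 0 to 1 when each library was left out. The unadjusted count, 1492, was 902 with DESeq2, 696 in the libraries with Y-linked expression and 782 to 2239 when each library was left out. The number of member pairs with an unadjusted exact p under 0.05, 8, was 11 as deviations from group means, 6 with library totals and 1 to 6 over the 5 libraries that remained when each was left out (1 without WT replicate 1). The replicate block gave 1693 genes at an unadjusted p under 0.05, 0 adjusted, and 1 clock gene, and deviations of same-numbered libraries correlated at 0.267, 0.059 and -0.02, so the numbers were not taken to pair the samples. Not every library correlated best with its own number.

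Leaving out each library turned the sign of small fold changes. The log2 fold change ran from -0.045 to 0.19 for Per3, from -0.059 to 0.17 for Dbp, from -0.12 to 0.048 for Cry1, from -0.014 to 0.20 for Nr1d1, from -0.013 to 0.080 for Nr1d2 and from -0.020 to 0.093 for Bhlhe41. It ran from -0.088 to 0.021 for Cry2, from -0.14 to 0.030 for Tef, from -0.12 to 0.030 for Rorb, from -0.094 to 0.020 for Rora, from -0.30 to 0.0018 for Bhlhe40 and from -0.11 to 0.071 for Nfil3. Rorb was at 0.032 in the libraries with Y-linked expression. Per1, Per2, Arntl, Ciart, Npas2, Clock, Hlf and Pla2g4e kept their sign in all 16. The causes were not tested. With 3 libraries per group, the intervals of the 10 genes do not exclude changes of the size of their bounds.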
